A study of Caenorhabditis elegans with 154 samples.

Results

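The *abu* and *pqn* genes are 2 overlapping families of *Caenorhabditis elegans* genes that encode proteins with repeated, glutamine- and asparagine-rich stretches. They were chosen by name, as every gene measured in both strains whose WormBase symbol is *abu* or *pqn* followed by a number, with isoforms summed. The rule gave 72 genes, 15 *abu* and 57 *pqn*, of 46765 genes measured, and 76 of 47639 transcript rows. Single first-stage (L1) larvae of 2 strains were sequenced after they had hatched without food in M9 buffer and arrested overnight, at a density of 1, 5, 20 or 100 eggs per μL. N2 is the wild type, and *fog-2* is a mutant whose XX animals make no sperm, so that the strain is kept by mating. The *fog-2* groups held 14, 22, 20 and 24 animals from the lowest to the highest density, and the N2 groups 13, 22, 16 and 23. All animals came from bleached mothers that had been raised on *Escherichia coli* OP50, so a group differs from the others of its strain in density alone as far as the labels say. Each library is 1 whole larva, and the labels do not say which larvae shared a tube, so the p-values measure the spread between single animals.

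The name *abu* stands for "activated in blocked unfolded protein response", after genes that were induced when the endoplasmic reticulum was stressed in *xbp-1* mutants. The name *pqn* stands for a prion-like domain rich in glutamine (Q) and asparagine (N). Many *abu* genes and their closest *pqn* relatives are expressed in the pharynx, where products such as ABU-14 belong to the cuticle that lines it and are made anew around each molt. The regulators CED-1 and OCTR-1 have been tied to the same genes in innate immunity. The *pqn* name also covers unrelated proteins, such as PQN-59, the relative of the human stress granule protein UBAP2L, and PQN-41, a polyglutamine protein with a role in the death of the male linker cell.

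Levels are in tpm, each transcript's scaled share of all transcripts of a library, which correct for transcript length but keep no read depth, so no counting interval is given. The number of genes above 0 tpm stands in for depth. In *fog-2* its median was 12221 genes at 1 egg/μL and 14086 at 100 eggs/μL, with animals between 8132 and 13251 and between 9558 and 18624. In N2 the medians were 10008 and 10536, with animals between 8424 and 11384 and between 8536 and 16016. In a whole animal, fewer cells of a type and less RNA per cell cannot be told apart. Near-identical neighboring members, named with their positions where they occur, could have shared reads in the authors' estimates, and their single values are uncertain for that reason.

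Most of the RNA of these families came from a few *pqn* genes, and the *abu* genes were close to silent in arrested larvae. The median animal was listed at 0 tpm for 14 of the 15 *abu* genes in each strain. Of the 57 *pqn* genes this held for 20 in *fog-2* animals and 22 in N2 animals, while 7 *pqn* genes in each strain had a median of 100 tpm or more. Only 13 members were above 0 in every *fog-2* animal and 10 in every N2 animal, all of them *pqn* genes. The median *abu* gene was listed at 0 in 87.5% of *fog-2* and 87.8% of N2 animals, and the median *pqn* gene in 15.0% and 20.3%.

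*pqn-48* was the most abundant member in both strains, with a mean of 1077 tpm in *fog-2* and 980.9 tpm in N2. It was above 0 in all 154 animals, and its group means stayed between 872.8 and 1298 tpm. *pqn-59*, the UBAP2L relative, was next among the genes found in every animal, with means of 246.8 tpm and 236.3 tpm. *pqn-53* averaged 154.6 tpm in *fog-2* and 232.3 tpm in N2, *pqn-24* averaged 188.2 and 180.1 tpm, and *pqn-51* averaged 114.1 and 194.5 tpm. All 5 were above 0 in every animal of the series. *pqn-31* and *pqn-25* had means of the same order, 387.3 and 135.4 tpm in *fog-2* and 227.0 and 214.4 tpm in N2, but 3 and 15 *fog-2* animals and 7 and 16 N2 animals had none. *pqn-75*, which is known from the gland cells of the pharynx, averaged 106.1 tpm in *fog-2* and 52.17 tpm in N2 and was at 0 in 11 and 14 animals. *pqn-89*, *pqn-94* and *pqn-22* completed the 12 members with the highest means, at 86.44, 36.97 and 42.97 tpm in *fog-2* and 46.94, 94.21 and 72.86 tpm in N2, together with *pqn-71*, whose N2 mean of 130.7 tpm included 2 animals at 2622 and 6236 tpm.

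At the other end, *abu-3* and *abu-9* were above 0 in 4 of 154 animals, *pqn-11* in 4 and *pqn-84* in 3. *abu-3* and *pqn-11* are annotated as pseudogenes. The other *abu* genes were above 0 in between 8 animals (*abu-4*) and 93 animals (*abu-14*), the second being the only *abu* gene with a median above 0 in either strain. *abu-14* is on chromosome II at 9225186 to 9227214 of WBcel235, minus strand. Outside N2 at 100 eggs/μL, its group means ran from 0.545 tpm in *fog-2* at 1 egg/μL to 6.585 tpm in N2 at 5 eggs/μL.

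Several members lie side by side. *abu-15*, *abu-6*, *abu-7* and *abu-8* lie within chromosome V, 5158602 to 5194608, and *abu-1* and *pqn-2* lie next to each other on chromosome V, 10380340 to 10384063. *pqn-76*, *abu-5*, *pqn-78* and *pqn-79* form a run on chromosome IV, 15579086 to 15596645, whose genes are equal in annotated length. Each member of this run was seen rarely. None of these 4 was above 0 in more than 18 of 154 animals. *pqn-57* and *abu-9* on chromosome X and *pqn-90* and *pqn-91* on chromosome IV are further neighboring pairs. By chromosome the members number 8 on I, 9 on II, 12 on III, 10 on IV, 19 on V and 14 on X.

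**Figure D1:**
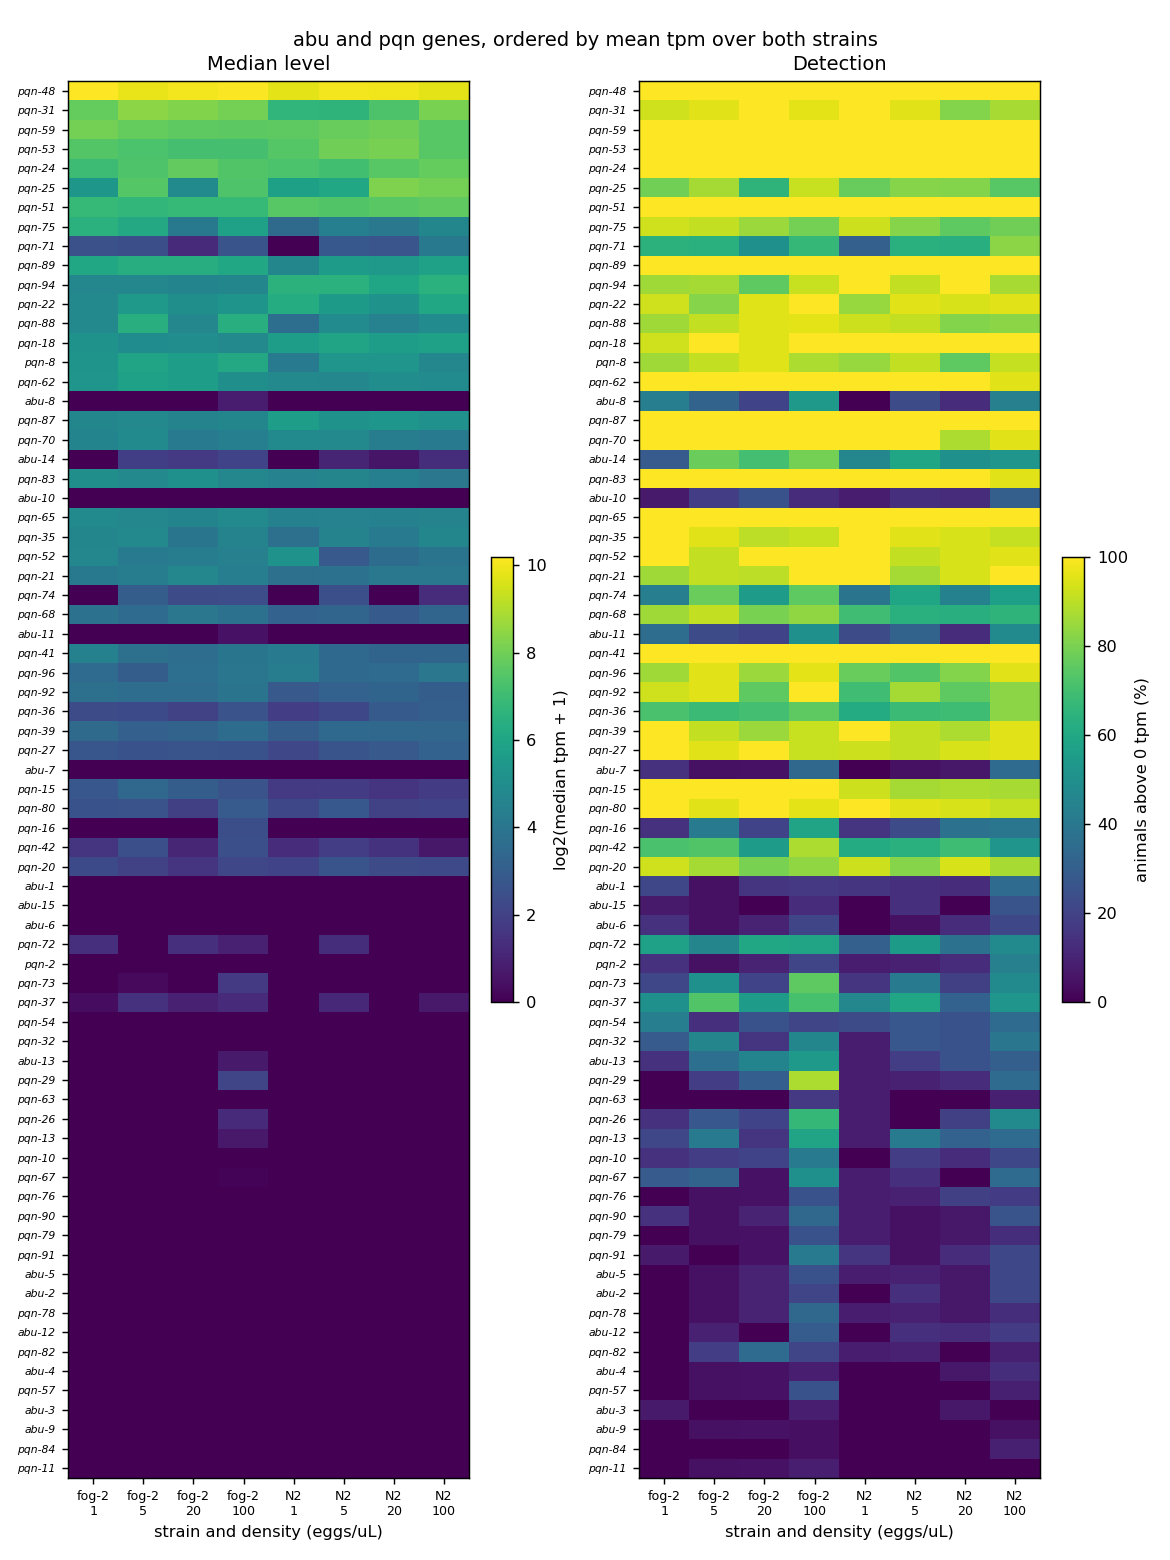
Median level, as log2(median tpm + 1), and share of animals above 0 tpm for all 72 members (rows, ordered by mean tpm) in the 8 groups of strain and density (columns). *pqn-48* is at the top in every group, nearly all *abu* rows are dark in the left panel, and more of the rarely detected members are found in *fog-2* animals at 100 eggs/μL.

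The comparison of 100 with 1 egg/μL asked whether crowding during arrest changed these genes. Over both strains, 5 members were higher at 100 eggs/μL and 1 was lower, of 53 that reached 1 tpm in 13 or more of the 74 larvae. The other 19 members did not reach that level and were not tested. The larvae were counted over both densities together, so a gene seen mainly at 100 eggs/μL could enter the test. *pqn-29*, *pqn-26*, *pqn-73* and *pqn-13*, described below, entered in this way, so their being tested was not independent of their difference. Of all 16468 genes tested, 10.3% were higher and 2.05% were lower, so the members' calls, 5 of 53 and 1 of 53, were near the background. A further 14 members had an unadjusted p under 0.05 by limma without passing the adjustment, 20 of 53 in all, beside 4248 of all 16468 genes. The median difference of the 53 was 0.32 on the log2(tpm + 1) scale, beside 0.24 for all genes. Among the 53, 37 estimates were above 0 and 16 below.

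The 5 genes that were higher were low or rare transcripts, with 1 exception. *pqn-29* (chromosome III, 4643929 to 4646346, minus strand) was listed at 0 in all 14 *fog-2* animals at 1 egg/μL and was above 0 in 21 of 24 at 100 eggs/μL, with a median of 3.40 tpm and a highest value of 21.6 tpm. In N2 it was above 0 in 1 of 13 animals at 1 egg/μL and in 8 of 23 at 100 eggs/μL, where the highest value was 13.7 tpm. The groups barely overlapped in *fog-2* and overlapped at 0 in N2. Over both strains the difference was 1.43 ± 0.28 (SE, adjusted p = 0.000335), a value that rests on the added 1 tpm because of the group at 0. *pqn-26* was above 0 in 2 of 14 *fog-2* animals at 1 egg/μL and in 16 of 24 at 100 eggs/μL, and in 1 of 13 and 11 of 23 N2 animals. Its median stayed at 0 in 7 of the 8 groups and was 1.42 tpm in *fog-2* at 100 eggs/μL. Its difference was 0.99 ± 0.26 (SE, adjusted p = 0.00837).

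*pqn-73* rose in the same comparison by 1.11 ± 0.32 (SE, adjusted p = 0.0141), with 3 of 14 *fog-2* animals above 0 at 1 egg/μL and 18 of 24 at 100 eggs/μL. *pqn-13* rose by 0.61 ± 0.21 (SE, adjusted p = 0.0475), from 3 of 14 to 14 of 24 *fog-2* animals above 0. Detection did not climb step by step: at 5 and 20 eggs/μL *pqn-73* was above 0 in 11 of 22 and 4 of 20 *fog-2* animals, and *pqn-13* in 9 of 22 and 3 of 20. *pqn-24* was the exception, a gene found in every animal. Its values in *fog-2* were 43.2, 126 and 211 tpm (lowest, median, highest) at 1 egg/μL and 103, 173 and 259 tpm at 100 eggs/μL. In N2 they were 27.1, 158 and 381 tpm at 1 egg/μL and 64.3, 223 and 557 tpm at 100 eggs/μL. The groups overlapped in both strains, and the difference was 0.62 ± 0.19 (SE, adjusted p = 0.0211). It did not pass when animals sharing a name digit were averaged within each group (0.36, adjusted p = 0.527) or without the animals of digit 3 (0.37, adjusted p = 0.448).

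*pqn-41*, the polyglutamine gene, was the only member that passed as lower. Its values in *fog-2* were 12.8, 21.5 and 36.8 tpm (lowest, median, highest) at 1 egg/μL and 1.64, 14.4 and 28.2 tpm at 100 eggs/μL. In N2 they were 4.57, 17.3 and 28.99 tpm against 0.88, 8.81 and 29.6 tpm. The medians moved down in both strains while the ranges overlapped. Over both strains the difference was -0.83 ± 0.23 (SE, adjusted p = 0.0104). The most negative estimate belonged to the gland gene *pqn-75*, -1.21 ± 0.61 (SE), which did not pass (adjusted p = 0.196). Its medians were 89.9 tpm in *fog-2* at 1 egg/μL and 56.3 tpm at 100 eggs/μL, against 10.7 and 24.3 tpm in N2. The estimates of *pqn-52*, -0.72 ± 0.31, and *pqn-70*, -0.56 ± 0.32, did not pass either (adjusted p = 0.12 and 0.269).

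Both the calls and some of the estimates moved when the number of genes detected was taken into account. With that number as a covariate 0 of 53 members passed by limma, 16 having an unadjusted p under 0.05, and the members' median turned from 0.32 to -0.00391. The estimates of *pqn-24* (0.62, adjusted p = 0.089), *pqn-41* (-0.84, adjusted p = 0.0503) and *pqn-26* (0.83, adjusted p = 0.101) stayed near their values. *pqn-29* went to 0.84 (adjusted p = 0.0791), *pqn-73* to 0.53 (adjusted p = 0.426) and *pqn-13* to 0.19 (adjusted p = 0.705). With quantile normalization, which brought the median of all genes from 0.24 to 0.035, *pqn-24* and *pqn-29* remained higher and *pqn-41* lower. Over all genes the same step turned 1698 higher and 338 lower calls into 403 and 391. The part of detection in the members' differences was not tested further.

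**Figure D2:**
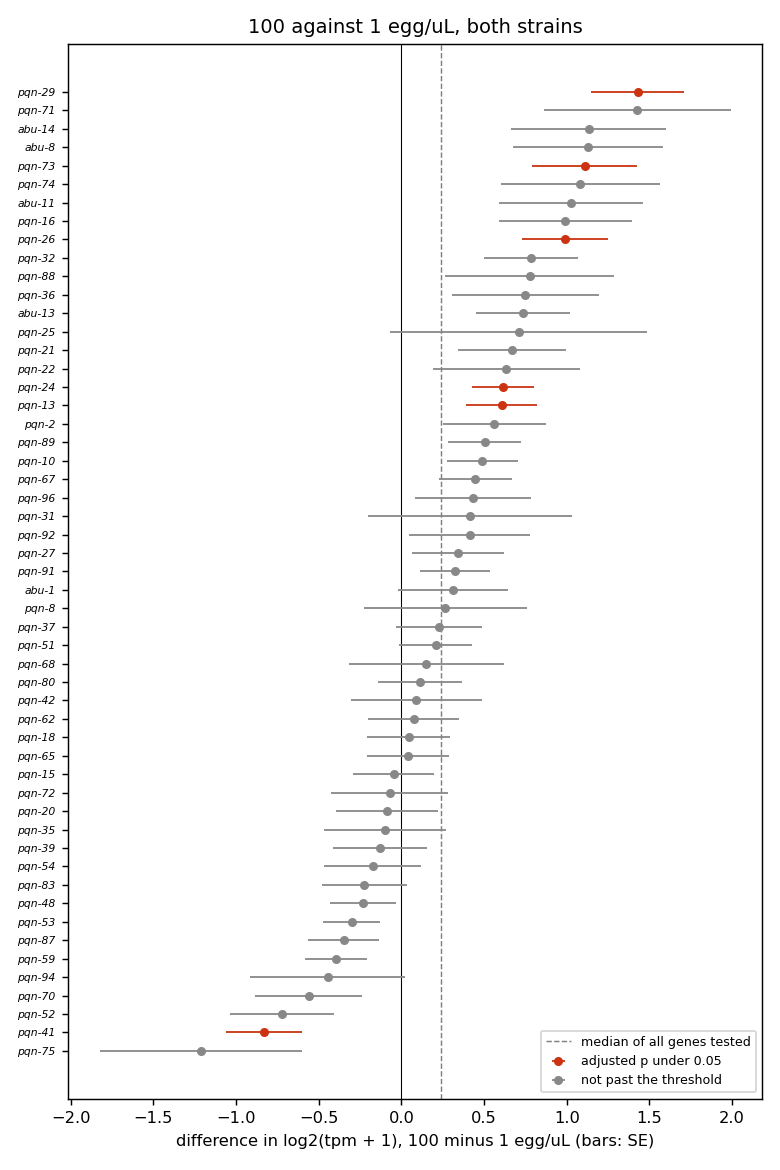
Difference in log2(tpm + 1) between 100 and 1 egg/μL for the 53 members tested (points, with SE bars), both strains together, 74 animals. The 6 members past the threshold are red, and the dashed line is the median of all genes tested, 0.24.

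Each strain was then fitted alone. In *fog-2*, 3 of 45 members tested were higher at 100 eggs/μL (*pqn-29*, *pqn-26* and *abu-14*) and 0 were lower by limma, with 10 at an unadjusted p under 0.05 in either direction. Over all 14086 genes 5.37% were higher and 1.2% lower, with 2767 at an unadjusted p under 0.05. *abu-14*, the pharyngeal cuticle gene, was above 0 in 4 of 14 *fog-2* animals at 1 egg/μL, with a highest value of 3.33 tpm, and in 19 of 24 at 100 eggs/μL, with a highest value of 31.7 tpm. Its difference was 1.68 ± 0.43 (SE, adjusted p = 0.0123). With so few animals above 0 at 1 egg/μL, *abu-14* entered this test through those at 100 eggs/μL, as did *pqn-29* and *pqn-26*. Their being tested was therefore not independent of their difference. At 5 eggs/μL it was already above 0 in 17 of 22 *fog-2* animals, with a mean of 6.05 tpm, beside 5.83 tpm at 100 eggs/μL.

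In N2, 0 of 39 members passed by limma, with 6 at an unadjusted p under 0.05. Of all 11626 genes 0.146% were higher and 0.215% lower, with 1249 at an unadjusted p under 0.05. The largest N2 estimate was that of *pqn-71*, 2.67 ± 0.90 (SE, adjusted p = 0.209). No member's change was shown to differ between the strains: 0 of 53 passed the interaction test by limma, as did 0 of 16468 genes (0%). At an unadjusted p under 0.05 there were 4 members and 1114 genes. The estimates farthest apart with N2 above *fog-2* were those of *pqn-71*, by 2.42 ± 1.11 (SE, N2 minus *fog-2*, adjusted p = 0.704).

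The trend used all 154 animals and the middle densities. Over the 4 densities, 10 of 61 members tested rose and 2 fell, beside 12.8% and 2.34% of 18910 genes. With the number of genes detected as a covariate 4 rose and 4 fell, and with quantile normalization 3 rose and 2 fell. *pqn-29* had the steepest slope, 0.21 ± 0.03 (SE) log2 units per doubling of density (adjusted p = 2.18e-06), followed among those that passed by *abu-8*, 0.16 ± 0.05 (adjusted p = 0.0179), and *pqn-26* and *abu-11*, 0.15 each (adjusted p = 0.000157 and 0.0257). *pqn-73*, *abu-7*, *abu-13*, *pqn-2*, *pqn-24* and *pqn-91* rose by between 0.06 and 0.13 per doubling. Here too the animals were counted over all groups together, so a gene seen mainly at 100 eggs/μL could enter the test. *pqn-29*, *pqn-26*, *abu-7*, *pqn-2* and *pqn-91* were such genes, so their being tested was not independent of their slopes. *pqn-41* fell by 0.11 and *pqn-70* fell by 0.12 per doubling. From the lowest to the highest density the medians of *pqn-41* were 21.5, 12.5, 11.4 and 14.4 tpm in *fog-2*. In N2 they were 17.3, 10.1, 8.735 and 8.81 tpm, so in each strain the first step was the largest. For *pqn-70* the difference between 100 and 1 egg/μL was 0.06 ± 0.34 (SE) in *fog-2* and -1.23 ± 0.54 (SE) in N2. In *pqn-29* the share of *fog-2* animals above 0 was 0 of 14, 4 of 22, 6 of 20 and 21 of 24 from the lowest to the highest density. In N2 it was 1 of 13, 2 of 22, 2 of 16 and 8 of 23, so in each strain the step to 100 eggs/μL was the largest. Without the N2 animals 1 and 12 at 100 eggs/μL, described next, *pqn-29*, *pqn-26*, *pqn-24*, *pqn-73*, *abu-13* and *pqn-91* still rose and *pqn-41* still fell. The slopes of *abu-8* (0.09, adjusted p = 0.0528), *abu-11* (0.09, adjusted p = 0.0964), *pqn-2* (0.05, adjusted p = 0.136) and *pqn-70* (-0.12, adjusted p = 0.0541) no longer passed, and *abu-7* no longer reached the level for a test.

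*abu* RNA was high in 2 of the 154 animals, which the labels give as arrested L1s like the others. Whether they were at the same stage, or handled in the same way, cannot be told from the labels or the tables. Animals 1 and 12 of N2 at 100 eggs/μL had summed *abu* levels of 7471 and 8596 tpm, or 0.747% and 0.86% of all transcripts. The other 21 animals of that group lay between 0.87 and 99.19 tpm with a median of 9.46 tpm, and 99.19 tpm was also the highest value of the remaining animals of the series. The group mean was 720.2 tpm with both animals and 23.75 ± 30.18 tpm (SD, n = 21) without them. The group means of the other 7 groups ran from 4.887 tpm in *fog-2* at 1 egg/μL to 16.3 tpm in *fog-2* at 100 eggs/μL. The 2 animals carry different digits in their names, 1 and 2, and had 10536 and 9449 genes above 0, inside the range of the other 21 animals, 8536 to 16016.

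**Figure D3:**
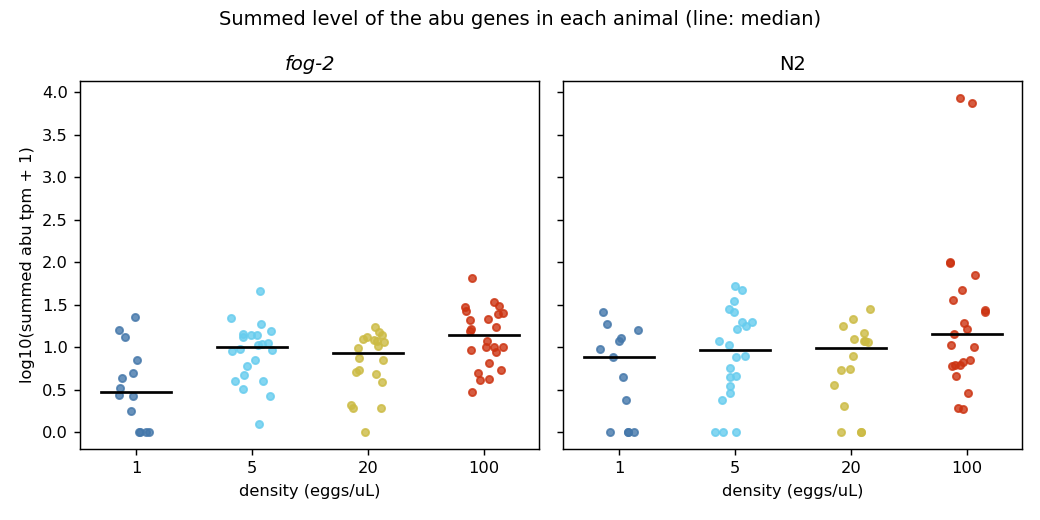
Summed level of the 15 *abu* genes in each animal, as log10(summed tpm + 1), by density for *fog-2* (left) and N2 (right), with the median of each group as a line. N2 animals 1 and 12 at 100 eggs/μL, at 7471 and 8596 tpm, stand above every other animal, of which the highest was at 99.19 tpm.

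Not all *abu* genes took part, and the mix differed between both animals. In animal 12 the leading *abu* genes were *abu-8* at 3442 tpm and *abu-10* at 2769 tpm, followed by *abu-7* at 640.3 tpm and *abu-11* at 554.0 tpm. In animal 1 *abu-14* led at 3287 tpm, followed by *abu-11* at 1429 tpm, *abu-8* at 1190 tpm and *abu-10* at 1080 tpm. *abu-14* was thus 3287 tpm in one animal and 142.2 tpm in the other. *abu-1*, *abu-6* and *abu-15* were between 84.33 and 383.1 tpm in both. Of the remaining 7 *abu* genes, *abu-2*, *abu-3*, *abu-9*, *abu-12* and *abu-13* were listed at 0 in both animals, and *abu-4* and *abu-5* were at 0 in animal 1 and at 1.80 and 1.82 tpm in animal 12. The 4 neighboring genes *abu-15*, *abu-6*, *abu-7* and *abu-8* on chromosome V were all high in both animals, and the run with *abu-5* on chromosome IV was not. *abu-10* (chromosome X, 3798182 to 3799741) and *abu-11* (chromosome II, 192509 to 194558) lie apart from any other member.

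The 2 animals were picked out by their *abu* levels, so the *abu* values describe that choice. *pqn* values were not used in it, but some *pqn* genes are close relatives or neighbors of *abu* genes and so are not independent of it. In 6 of 57 *pqn* genes (10.5%) both animals were above all the other animals of the series, beside 340 of 27230 genes ever detected (1.25%). *pqn-71* was at 2622 and 6236 tpm in animals 1 and 12, against a median of 14.21 tpm in the other 21 and a highest value of 88.65 tpm in all other animals. *pqn-74* was at 1366 and 632.4 tpm, against 1.43 and 45.79 tpm. *pqn-36* was at 123.99 and 273.1 tpm, against 5.81 and 74.97 tpm. *pqn-2*, the neighbor of *abu-1*, was at 75.43 and 209.4 tpm, and *pqn-63* at 76.27 and 111.9 tpm, both with a median of 0 in the other 21. *pqn-42* was at 34.73 and 34.03 tpm, just above the highest of the others, 31.12 tpm.

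The abundant members did not share the rise. *pqn-48* was at 146.0 and 81.65 tpm in animals 1 and 12, against a median of 906.9 tpm and a lowest value of 91.92 tpm in the other 21. *pqn-59* was at 49.53 and 22.99 tpm against a median of 188.4 tpm, and *pqn-53* at 43.88 and 29.18 tpm against 199.5 tpm. In *pqn-48*, *pqn-59* and *pqn-53* animal 12 was below all other animals of the series. Low values were common in these animals. Both were below all others in 185 of the 1557 genes that were above 0 in all other animals, and in 0 of the 9 such members. *pqn-31* was at 0 and 47.86 tpm against a median of 283.3 tpm. *pqn-24* and *pqn-51* were within the range of the other animals. *pqn-41*, which fell with density, was at 29.61 and 29.63 tpm, above the 24.29 tpm that was the highest of the other 21. With both animals left out, the N2 estimate of *pqn-71* went from 2.67 to 1.90 ± 0.67 (SE, adjusted p = 0.19), and over both strains *pqn-52* joined the genes that were lower (-0.84 ± 0.30, adjusted p = 0.0463).

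**Figure D4:**
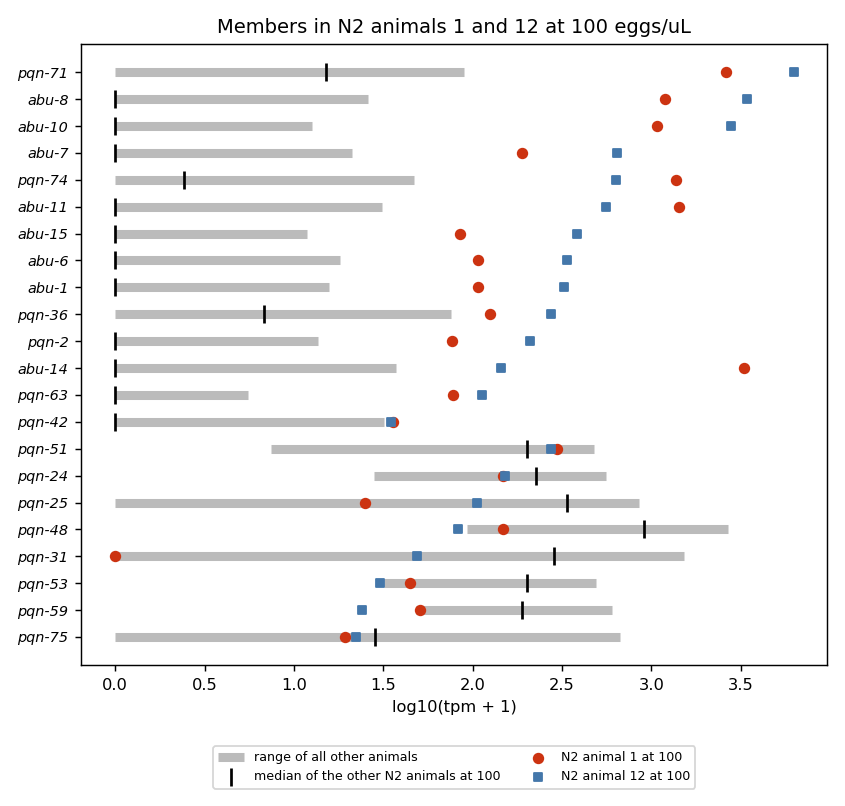
Levels, as log10(tpm + 1), in N2 animals 1 (red circles) and 12 (blue squares) at 100 eggs/μL of the 14 members in which both exceeded all other animals and of 8 abundant members. Grey bars span the other animals of the series and black ticks mark the median of the other 21 N2 animals at 100 eggs/μL. *pqn-71*, at 2622 and 6236 tpm, and 8 *abu* genes lie to the right of their bars, and animal 12 lies left of the bars of *pqn-59*, *pqn-53* and *pqn-48*.

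Genes outside the families were high in the same animals. Among those chosen for this after their values were seen, the collagen gene *col-77* was at 3524 and 3736 tpm in animals 1 and 12, against a highest value of 65.49 tpm in all others. The collagen gene *col-65* was at 2240 and 4369 tpm against 43.46 tpm, and *grl-16*, a ground-like gene, at 1653 and 3994 tpm against 22.04 tpm. The summed level of 20 pharyngeal genes was 15330 and 11360 tpm in animals 1 and 12, above the 749.2 to 10550 tpm of the other 21. Of these, *phat-4* was at 3222 and 2215 tpm, *phat-5* at 6841 and 5533 tpm and *phat-2* at 1114 and 274.5 tpm, each above all other animals of the series, in which the highest values were 364.6, 3040 and 114.5 tpm. The *phat* genes are named for toxin-like proteins of the pharyngeal glands. *phat-3* and *phat-6* were instead at 38.58 and 19.67 tpm and at 9.06 and 47.41 tpm, against medians of 483.3 and 425.8 tpm in the other 21. The pharyngeal muscle myosin gene *myo-2*, at 310.3 and 207.9 tpm, was within the range of the other animals, as was the pharyngeal regulator *pha-4*, at 155.4 and 82.47 tpm. *myo-1* and *tnc-2* of the same list did not exceed the highest of the other 21 either. Other list genes did in both animals. *tni-4* was at 218.5 and 216.5 tpm against 210.1 tpm, and *tnt-4* at 337.5 and 233.9 tpm against 198.6 tpm. *pgp-14* and *phat-1* were also above the other 21 in both. In all other animals of the series *tni-4* reached 313.6 tpm and *tnt-4* 272.1 tpm. The gland regulator *hlh-6* was at 0 and 2.17 tpm against a median of 23.91 tpm, and the marginal cell gene *marg-1* was at 0 in both against a median of 189.9 tpm.

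The endoplasmic reticulum stress genes, for which the *abu* family was named, were less uniform. Their summed level was 5983 and 6054 tpm in animals 1 and 12, above the other 21 animals (2471 to 4734 tpm) but below the highest sums in *fog-2* at 1 egg/μL, 8119 tpm, and in N2 at 5 eggs/μL, 6396 tpm. *xbp-1* was at 2089 and 4147 tpm, against a median of 785.0 tpm and a highest value of 2230 tpm. In animal 12 *xbp-1* made up most of the sum, and the other list genes lay on both sides of their medians in the other 21. The chaperone gene *hsp-4*, a standard readout of the response, was at 75.35 and 69.26 tpm, above the median of the other 21, 9.46 tpm, and below their highest value, 169.6 tpm. None of the 23 genes of this list had both animals above all others. Of 20 molting genes, *ptr-23* had both animals above all others, at 98.16 and 161.2 tpm against a highest value of 61.87 tpm. *nas-36*, at 9.62 and 17.21 tpm, was above the other 21 in both, whose highest value was 2.09 tpm. In all other animals of the series *nas-36* reached 12.61 tpm. The summed molting list, at 187.6 and 221.3 tpm, lay within the range of the other 21, 63.26 to 579.1 tpm. Among markers of other tissues, the summed level of body wall muscle genes was 4674 and 5352 tpm, above the 1433 to 3477 tpm of the other 21. It was below the highest sums in N2 at 1 egg/μL, 7183 tpm, and at 5 eggs/μL, 5730 tpm. Most of the sum was *unc-15*, at 3622 and 4559 tpm, below the highest value of other animals, 5957 tpm. Of this list only *myo-3* had both animals above all others, at 365.9 and 217.9 tpm against 217.1 tpm. The sums for intestine, hypodermis and neurons lay inside the ranges of the other 21. Oocyte and early embryo markers summed to 56.48 and 3.08 tpm and sperm markers to 19.91 and 0 tpm. What part other cell types have in these levels was not tested.

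Members also varied together between animals of 1 strain and density. After the mean of each group had been taken out, the median Pearson correlation over the 1176 pairs of 49 members in *fog-2* was 0.08 (80 animals), beside 0.05 over all gene pairs, and 11.1% of member pairs exceeded 0.3, beside 4.69% of all pairs. In N2 the median over 990 pairs of 45 members was 0.084 (74 animals), beside 0.05, and 14.2% exceeded 0.3, beside 6.23%. Without animals 1 and 12 at 100 eggs/μL the N2 share was 12.1%. The points share the libraries of a strain, and taking out the number of genes detected as well lowered the medians to 0.037 in *fog-2* and 0.038 in N2, beside 0.01 and 0.02 over all gene pairs. The shares above 0.3 were then 7.82% and 9.49%, beside 2.49% and 3.66%. Among pairs measured in both strains 128 were above 0.3 in *fog-2*, and of those 52 were above 0.3 in N2 too. The median of the 128 in N2 was 0.26.

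The 6 pairs with the highest correlation in *fog-2* were then tested in N2, whose animals had no part in choosing them. *pqn-25* and *pqn-88* had r = 0.76 in *fog-2* and r = 0.69 (rho = 0.80) in N2. *pqn-25* and *pqn-75* had 0.76 in *fog-2* and 0.68 (rho = 0.63) in N2, and *pqn-75* and *pqn-88* had 0.74 and 0.64 (rho = 0.68). *pqn-8* and *pqn-25* had 0.67 and 0.74 (rho = 0.74), *pqn-31* and *pqn-88* had 0.60 and 0.62 (rho = 0.66), and *pqn-65* and *pqn-87* had 0.59 and 0.44 (rho = 0.43). For the first 5 pairs the two-sided permutation p in N2 was 1e-05 for r and for rho, the smallest that 100000 shuffles within densities can give, and 1.2e-05 after adjustment over 6 pairs. For *pqn-65* and *pqn-87* the permutation p was 3e-05 for r and 0.00011 for rho, the same after adjustment. Without the 2 animals farthest from the median of the first gene, r in N2 was between 0.46 and 0.74. With the means of each name digit taken out too it was between 0.46 and 0.73. With the number of genes detected taken out, r in N2 fell to 0.27 for *pqn-65* and *pqn-87* and was between 0.54 and 0.65 for the other 5 pairs.

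Animals with high and with low levels of *pqn-25* were both common. *pqn-25* was listed at 0 in 15 of 80 *fog-2* animals, lay between 0 and 128 tpm in 26 and was at or above 128 tpm in 39. In N2 the counts were 16, 22 and 36 of 74 animals. Each part held animals of all 4 densities. At 1 egg/μL 6 of 14 *fog-2* animals and 5 of 13 N2 animals were at or above 128 tpm, and at 100 eggs/μL 13 of 24 and 12 of 23. Within the animals at or above 128 tpm, a level chosen after the values had been seen, r of *pqn-25* and *pqn-88* was 0.33 in *fog-2* (n = 39) and 0.20 in N2 (n = 36). Below it r was 0.28 (n = 41) and 0.08 (n = 38). In the same order of strains, the values for *pqn-75* and *pqn-88* were 0.39 and 0.24 above and 0.23 and 0.13 below. For *pqn-25* and *pqn-75* they were 0.32 and -0.34 above and 0.21 and 0.28 below. For *pqn-8* and *pqn-25* they were 0.49 and 0.20 above and 0.46 and 0.43 below. For *pqn-31* and *pqn-88* they were 0.60 and 0.35 above and 0.34 and 0.23 below, and for *pqn-65* and *pqn-87* 0.28 and -0.18 above and 0.51 and 0.34 below. Such a division narrows the range of *pqn-25* and of genes that vary with it, which lowers r within the parts by itself, so these values do not show how much of the pooled r is graded.

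Pharyngeal genes were high and low in many of the same animals. Of 18 genes in a list of pharyngeal lining, gland, muscle and regulatory genes that could be measured in *fog-2*, 11 had a Spearman correlation above 0.5 with *pqn-25* (median 0.57), beside 4.59% of 15579 genes. In N2 it was 10 of 17 (median 0.54), beside 6.41% of 13827 genes. The values were 0.81 in *fog-2* and 0.82 in N2 for *phat-6*, 0.73 and 0.78 for *hlh-6*, and 0.74 and 0.62 for *myo-2*. For the gland gene *pqn-75* 11 of 18 and 6 of 17 list genes were above 0.5, beside 3.28% and 0.969% of all genes. For *pqn-31* it was 13 of 18 and 9 of 17, beside 5.4% and 8.85%. Low values with *pqn-25* were those of *nas-6* (0.01 in *fog-2* and 0.28 in N2), *phat-4* (0.21 and 0.15) and *phat-2* (0.03, *fog-2* only), among others. *ajm-1* had 0.33 and 0.43, and *tnc-2* had 0.56 and 0.24. Inside the animals at or above 128 tpm of *pqn-25*, r of *pqn-25* with *phat-6* was 0.17 in *fog-2* and 0.44 in N2. How much of the pharyngeal RNA was recovered from each animal was not tested.

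**Figure D5:**
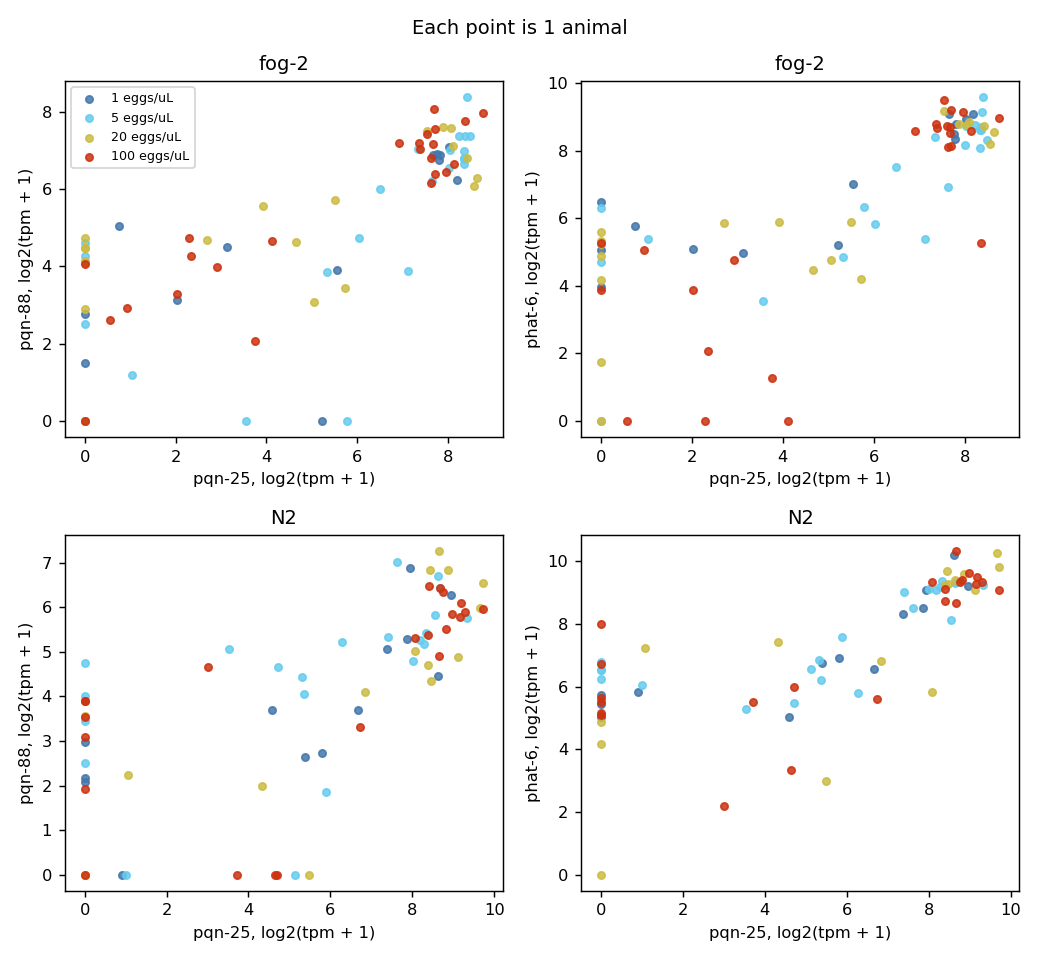
Level of *pqn-88* (left) and of the pharyngeal gland gene *phat-6* (right) against *pqn-25*, as log2(tpm + 1), in single *fog-2* (top) and N2 (bottom) animals, colored by density. In each panel a dense set of animals sits at the upper right and the others spread to 0, and all 4 densities are found in both parts.

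Most *abu* values were 0, so these genes were also counted. The number of *abu* genes above 0 in an animal rose with the number of all genes above 0 in *fog-2* (Pearson r = 0.63, Spearman rho = 0.57, n = 80, two-sided permutation p = 1e-05, the smallest that 100000 permutations can give, and 2e-05 after adjustment over 2 relations). Within densities r was between 0.30 and 0.74, and without the 2 animals farthest from the median number of genes it was 0.55. In N2 the relation was weaker (r = 0.36, permutation p = 0.00232, and rho = 0.26, permutation p = 0.0262, n = 74), and r was 0.28 without the 2 farthest animals. It did not hold within the N2 groups at 1, 5 and 20 eggs/μL, where r was -0.06, 0.13 and 0.09, and was 0.40 at 100 eggs/μL. The genes outside the families most like the summed *abu* level in *fog-2* reached Spearman correlations of 0.39 to 0.42. In N2 5 of the 8 were too rarely detected for a value, and *sri-18*, *fbxb-88* and C50F4.6 had -0.129, 0.062 and 0.226.

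Lists of genes with known ties to these families were read beside them in the comparison of 100 with 1 egg/μL, both strains. Of 23 unfolded protein response genes, 0 rose and 0 fell by limma (3 at an unadjusted p under 0.05), with *hsp-4* at 0.61 ± 0.42 (SE, adjusted p = 0.376), and in the trend *pdi-2* and *pdi-6*, 2 protein disulfide isomerase genes, fell. Without animals 1 and 12 *pdi-2* was also lower in this comparison (-0.42 ± 0.14 SE, adjusted p = 0.0299). Of 11 regulators tested, among them *ced-1*, *pha-4* and *nhr-23*, 0 rose and 0 fell by limma (1 at an unadjusted p under 0.05). Of 19 pharyngeal genes, *phat-4* rose by 1.90 ± 0.53 (SE, adjusted p = 0.0118) and *hlh-6* by 1.55 ± 0.54 (SE, adjusted p = 0.0422). Without animals 1 and 12 these were 1.52 (adjusted p = 0.0106) and 1.66 (adjusted p = 0.0282). Of 20 molting genes 7 rose, among them the apical matrix genes *fbn-1*, by 1.20 ± 0.27 (SE, adjusted p = 0.0018), and *noah-1*, by 1.14 ± 0.35 (SE, adjusted p = 0.0216), and 0 fell. The others were *mlt-11*, *noah-2*, *nas-36*, *acn-1* and *sym-1*, which rose by between 0.88 and 1.22. The same background applied, 10.3% of all genes being higher. With the number of genes detected as a covariate 0 pharyngeal and 0 molting genes rose by limma, 6 and 5 having an unadjusted p under 0.05 in either direction. With quantile normalization 0 pharyngeal genes (2 at an unadjusted p under 0.05) and 1 molting gene rose.

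Of the marker lists, 0 of 7 pharynx, 0 of 5 body wall muscle, 0 of 3 hypodermis, 0 of 6 neuron and 0 of 2 sperm genes tested passed in this comparison by limma. At an unadjusted p under 0.05 there were 1, 3, 2, 0 and 0 of them. Of 5 intestine genes *cpr-1* was higher by 1.37 ± 0.39 (SE, adjusted p = 0.0138). Of 12 oocyte and early embryo genes 6 were higher (*spn-4*, *oma-1*, *oma-2*, *mex-6*, *puf-5* and *pos-1*), *pos-1* by 1.68 ± 0.39 (SE, adjusted p = 0.0026). With the number of genes detected as a covariate 0 of the 12 passed by limma, 6 having an unadjusted p under 0.05. The part of these oocyte and early embryo transcripts in the members' differences was not tested.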

How the data were processed

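Single arrested L1s were sequenced by a Smart-Seq2 protocol, and the authors deposited 1 table of tpm per strain, from Bowtie and RSEM on ce11 (versions not given in the sources used here). Of the columns, 146 were matched to 1 labelled animal and 8 only to the group of *fog-2* at 1 egg/μL, and 0 were left out. Isoform rows were summed by sequence name, and symbols came from RefSeq and Ensembl for WBcel235, in which *pqn-32* is also named *dbd-8*. The members and lists were chosen with earlier results of these data known.

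log2(tpm + 1) was fitted with limma 3.58.1 (R 4.3.3, mean-variance trend, strain as a covariate) over all genes with at least 1 tpm in at least 13 animals, with Benjamini-Hochberg adjustment over all genes and a threshold of 0.05. The 13 animals were counted over all groups compared, not within each group. Fold changes on this scale understate changes of low genes. Correlations used members with at least 1 tpm in 20% of a strain's animals, and permutation tests 100000 shuffles (Python 3.11.15, numpy 2.4.6, pandas 2.3.3, scipy 1.17.1). Both steps were tested on simulated data.

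Named were all *abu* genes, *pqn* genes past the threshold, the most abundant members, the 4 largest estimates in each direction, members of the 6 best-correlated *fog-2* pairs, and list genes past the threshold. Other genes named beside N2 animals 1 and 12 were chosen after their values were seen. Classes by protein sequence were not made, and likeness was taken to the *abu* sum instead. Alternatives changed the pseudocount, filter, scaling, covariates, animals, isoform handling, variance model and threshold. Leaving out N2 animals 1 and 12 at 100 eggs/μL and dividing animals at 128 tpm of *pqn-25* were added after seeing the data.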

Additional observations from a re-analysis of the deposited data

How the results depend on the processing

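The count of 6 members called over both strains was 3 with quantile normalization, 0 with genes detected as a covariate, 3 on means by name digit, 1 without name digit 3 and 11 at an adjusted p under 0.1. The *fog-2* count of 3 became 0 with the stricter filter of 5 tpm, with the covariate, on digit means and without digit 3, 1 with quantile normalization and 7 at 0.1. The N2 count stayed at 0 under the alternatives run. The trend count of 12 was 5 with quantile normalization, 5 without digit 3 and 7 without N2 animals 1 and 12 at 100 eggs/μL, an alternative added after seeing the data. The members' median of 0.32 turned to -0.00391 with the covariate, while *pqn-24* (0.62) and *pqn-41* (-0.84, adjusted p = 0.0503) kept their estimates. *pqn-24* fell to 0.36 on digit means and 0.37 without digit 3, and *pqn-41* was not called lower in either setting. Why these moved was not tested. With the name digit as a replicate block, 5 members were called. The labels do not say what the digit marks, so it was not read as a pairing. For the 12 members called or with the largest differences over both strains no sign turned, and of 188 values 23 lost and 3 gained the threshold. Of 93 slopes of members called in the trend 29 lost it. Without N2 animals 1 and 12, uncalled estimates turned for *abu-14* in N2 (0.55 to -0.16) and *pqn-42* over both strains (0.09 to -0.07). Within the N2 animals at or above 128 tpm of *pqn-25*, and below it, divisions also added after seeing the data, r was 0.20 and 0.081 for *pqn-25* and *pqn-88*, -0.34 and 0.28 for *pqn-25* and *pqn-75*, 0.24 and 0.13 for *pqn-75* and *pqn-88*, 0.20 and 0.43 for *pqn-8* and *pqn-25*, 0.35 and 0.23 for *pqn-31* and *pqn-88*, and -0.18 and 0.34 for *pqn-65* and *pqn-87*. The tables hold no depth, so a gene at 0 tpm may be below detection.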
